A study of Mus musculus with 10 samples.

Results

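A set of 36 interferon-stimulated genes was followed in sorted osteoblastic lineage cells from mice with and without a BCR/ABL-driven myeloproliferative disease. The genes were chosen by symbol, as a set of well-known interferon targets, and 36 of 36 were measured among the 19938 genes with a probe set assigned to a single symbol. The BA mice carried the transgenes Scl-tTA::TRE-BCR/ABL, in which withdrawal of doxycycline switches on the BCR/ABL oncogene in cells that use the Scl (Tal1) regulatory sequence, active in blood stem and progenitor cells. The control mice were of matched age, and their alleles are not named in the labels. Both groups were C57BL/6, both were taken off doxycycline at 5 weeks of age, and both were sampled 5 to 6 weeks later. Each group had 5 mice, with 1 array per mouse. From each mouse 500 to 2300 cells were sorted from collagenase-digested bone after staining for lineage antigens, CD45, CD31, Sca-1 and CD51, and the RNA was amplified before hybridisation to Affymetrix Gene ST 1.0 arrays. All values are log2 signals, so a difference of 1 is a 2-fold change, and differences are BA minus control.

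Interferons are secreted signalling proteins, and those of type I are released by cells on sensing foreign or misplaced nucleic acid. Type I interferons bind a receptor made of Ifnar1 and Ifnar2, whose kinases Jak1 and Tyk2 phosphorylate Stat2. Stat2 and Irf9 are parts of the factor ISGF3, which binds the interferon-stimulated response element (ISRE). Interferon gamma acts at a different site, the gamma-activated sequence (GAS), and drives Irf1 and the chemokines Cxcl9 and Cxcl10. The induced proteins degrade viral RNA, block its translation, restrict entry of virus into the cell and attract lymphocytes. In bone marrow, interferons are known to wake quiescent blood stem cells and to restrain the formation of osteoclasts.

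The short motif common to many of these genes was searched for in the 250 bases before each gene's start, taken from RefSeq (GRCm38.p6). The ISRE core was searched as GAAANNGAAA, or TTTCNNTTTC on the other strand, and the GAS as TTCNNNGAA, which reads the same on both strands. An entry was found for 27 of the 36 members, and Parp9, Parp14, Rtp4, Mx1, Dhx58, Mx2, Zbp1, Usp18 and Oas2 had none. The ISRE core was present in 8 of these 27 (29.6%), against 936 of 27025 genes (3.46%). The 8 were Gbp3, Cxcl10, Oas3, Bst2, Stat2, Rsad2, Ifit3 and Ifit1. The GAS letters were present in 4 of the 27 (14.8%: Bst2, Irf1, Eif2ak2 and Ifit2), against 2197 of 27025 genes (8.13%). A match is a match of letters and does not show a bound site. The promoters of 4 members are printed 5′ to 3′ on the gene's strand, with ISRE matches in capitals: Ifit3, Cxcl10 and Stat2, whose values on single arrays are given further on, and Cxcl9, the member with the smallest p, in which neither motif was matched. They lie at chr19:34583279-34583528 on the plus strand (Ifit3), chr5:92348890-92349139 on the minus strand (Cxcl10), chr10:128270248-128270497 on the plus strand (Stat2) and chr5:92328080-92328329 on the minus strand (Cxcl9).
Ifit3: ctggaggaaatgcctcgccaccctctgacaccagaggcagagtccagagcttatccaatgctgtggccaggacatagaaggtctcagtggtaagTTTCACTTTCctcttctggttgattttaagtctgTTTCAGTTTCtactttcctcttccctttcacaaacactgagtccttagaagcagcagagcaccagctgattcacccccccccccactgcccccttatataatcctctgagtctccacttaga
Cxcl10: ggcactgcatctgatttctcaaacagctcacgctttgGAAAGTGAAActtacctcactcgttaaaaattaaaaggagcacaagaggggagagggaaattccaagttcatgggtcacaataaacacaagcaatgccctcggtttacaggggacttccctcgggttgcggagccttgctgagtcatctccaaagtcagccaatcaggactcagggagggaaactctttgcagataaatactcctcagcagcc
Stat2: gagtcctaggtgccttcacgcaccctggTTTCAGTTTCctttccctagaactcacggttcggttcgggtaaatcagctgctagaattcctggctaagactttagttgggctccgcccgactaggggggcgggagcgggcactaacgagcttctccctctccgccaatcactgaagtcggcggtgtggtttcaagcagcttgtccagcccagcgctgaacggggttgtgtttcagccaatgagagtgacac
Cxcl9: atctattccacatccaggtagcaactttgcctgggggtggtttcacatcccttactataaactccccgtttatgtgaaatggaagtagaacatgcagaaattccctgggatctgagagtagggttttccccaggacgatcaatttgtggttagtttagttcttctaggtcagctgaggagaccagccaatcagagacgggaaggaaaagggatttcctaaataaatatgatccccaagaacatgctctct
Counted from the gene's start, the matches began at -156 and -122 in Ifit3, at -213 in Cxcl10 and at -222 in Stat2.

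Osteoblast markers were read in the sorted cells, but Runx2, Bglap and Spp1 of the list were not found among the named probe sets. All 9 measured osteoblast markers of 12 listed had a mean level above that of the median gene, and their mean ranged from 9.74 to 10.48 on control arrays and from 9.32 to 10.16 on BA arrays. Of these 9 markers, 6 had lower and 3 higher means in BA cells. None passed the adjusted threshold in limma. Of those lower, 4 had an unadjusted p under 0.05, as 5.27% of all genes did in that direction: Col1a1 (-1.25), Col1a2 (-1.16), Phex (-1.12) and Dmp1 (-0.42). For Col1a2 the groups did not overlap, as for 1.1% of all genes with lower values. All 12 chondrocyte markers also lay above the median gene, with a mean of 10.19 to 10.89 on control and 10.45 to 11.00 on BA arrays. A level above the median gene thus does not by itself tell the cell type. Xist, transcribed from the inactive X chromosome of female cells, was high (9.81 to 10.70) on 5 arrays and low (3.85 to 5.08) on 5. The labels give no sex. The low arrays were control 1, 2 and 3 and BA 1 and 3. Of all 19938 genes, 1 passed an adjusted p of 0.05 in limma, which is 0.00502%.

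No interferon-stimulated gene of the 36 passed the test between control and BA mice, and the set showed no common direction. The median difference over the 36 was -0.05, against -0.06 over all genes. Of the members, 15 (41.7%) were higher on average in BA cells, where 37.9% of all genes were, and 21 were lower. Differences ran from -1.54 for Cxcl9, a chemokine for T cells, to 1.22 for Ifit3, an RNA-binding antiviral protein. They were 0.3 or less in size for 25 members and over 0.5 for 8.

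The lowest adjusted p among members was 0.484 (limma, Benjamini-Hochberg over all 19938 genes, 5 against 5 arrays). An unadjusted p under 0.05 was reached by 1 member higher in BA cells, Trim25, where 4.13% of all genes reached it in that direction. It was reached by 1 member lower in BA cells, Cxcl9, where 5.27% of all genes did. No member had BA and control arrays that did not overlap, against 0.567% of all genes for higher and 1.1% for lower values. The member counts were thus near the background or below it. The 95% interval of the difference included 0 for 34 of 36 members. It was wide for members that varied between mice, as for Cxcl10, where it ran from -2.58 to 1.61. No detection call was used, and 22 of the 36 members had a mean at or below that of the median gene, where the probe is not shown to be above background. A narrow interval at such a level does not bound a change in the RNA. In such bulk samples a smaller number of expressing cells and less RNA per cell cannot be told apart.

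**Figure D1:**
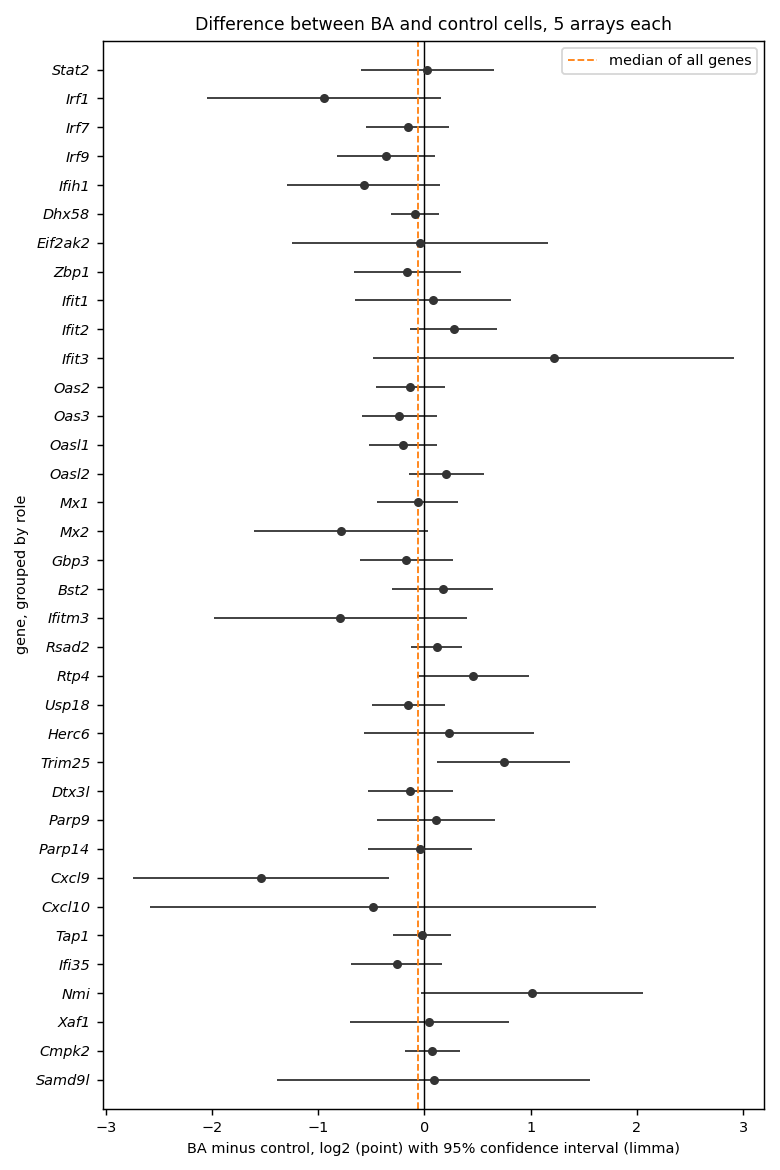
Difference of each of the 36 members between BA and control cells, in log2 units on the horizontal axis, with members on the vertical axis grouped by role. Points are BA minus control with the 95% interval from limma (5 against 5 arrays) and the dashed line is the median of all genes, -0.06; the intervals of Cxcl9 and Trim25 alone leave out 0.

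Of the 4 transcription factors, 3 had lower means in BA cells and 1 was level, with a median difference of -0.26, and none passed the test. Irf1, a factor driven by interferon gamma, was 8.94, 7.60, 7.33, 7.01 and 9.36 on control arrays 1 to 5 and 6.93, 8.06, 7.57, 6.39 and 6.56 on BA arrays 1 to 5. Control 1 and 5 stood highest and BA 4 and 5 lowest, while the middle values of the groups overlapped. The difference was -0.95 ± 0.50 (SE; limma adjusted p = 0.547). Irf1 was the only member with a second probe set, which averaged 7.51 ± 0.39 and 6.88 ± 0.27 (SD, n = 5 each) in control and BA cells and differed by -0.63 ± 0.20. In a fit of every probe set, limma gave it an unadjusted p of 0.00949 and an adjusted p of 0.450. Both probe sets had the same sign and neither passed.

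Stat2, the signal-carrying part of ISGF3, was 7.88, 6.35, 6.24, 6.79 and 7.32 on control arrays and 7.17, 6.90, 6.87, 6.87 and 6.91 on BA arrays. The BA values lay within a narrow band inside the control range, and the means were 6.92 ± 0.69 and 6.94 ± 0.13 (SD, n = 5 each). Irf9, the DNA-binding part of ISGF3, was 6.35, 6.98, 6.10, 6.50 and 6.54 in control and 5.70, 6.38, 6.31, 6.52 and 5.75 in BA cells. BA 1 and 5 were below every control array, but the other BA arrays were not, and the difference was -0.36 ± 0.21 (SE; limma adjusted p = 0.559). Irf7, the factor that amplifies production of type I interferon, was 5.98, 5.84, 5.58, 5.91 and 6.45 in control and 6.03, 5.67, 6.09, 5.45 and 5.74 in BA cells. The groups overlapped widely, with a difference of -0.16 ± 0.18.

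**Figure D2:**
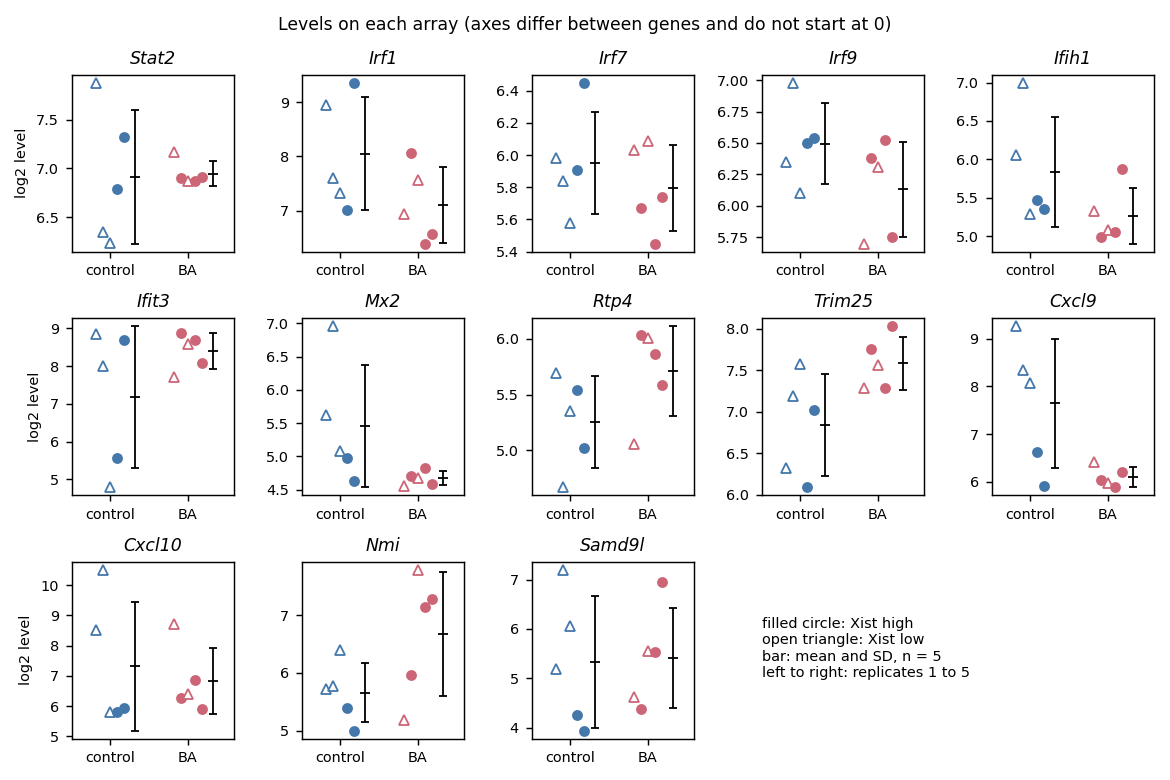
Log2 signal (vertical axis) on each array for members described array by array, with control and BA groups on the horizontal axis. Points are single mice (filled circles for high Xist, open triangles for low) and bars are group means with SD (n = 5). The groups overlap in every panel, Cxcl9 included, where control 5 (5.91) lies among the BA arrays.

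All 4 members grouped as sensors of double-stranded RNA and their relatives had lower means in BA cells, with a median difference of -0.13, and none passed. Ifih1, the sensor MDA5, was 6.06, 7.00, 5.29, 5.47 and 5.35 in control and 5.33, 4.99, 5.08, 5.05 and 5.87 in BA cells. The highest value of each group was on control 2 and BA 5, and the difference was -0.57 ± 0.32 (SE; limma adjusted p = 0.559). Eif2ak2, the kinase PKR that stops translation, was 5.69, 7.65, 5.37, 6.37 and 5.71 in control and 5.18, 5.36, 5.69, 6.74 and 7.60 in BA cells. Control 2 and BA 5 were again the high arrays, at almost the same value, and the group difference was -0.04 ± 0.54. Dhx58, the helicase LGP2, differed by -0.09 ± 0.10, and Zbp1, a sensor of Z-form nucleic acid, by -0.16 ± 0.23.

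IFIT proteins bind foreign RNA and hinder its translation. All 3 had higher means in BA cells, with a median difference of 0.28, and none passed. Ifit3 was 8.86, 8.0, 4.79, 5.56 and 8.70 on control arrays and 7.71, 8.89, 8.60, 8.70 and 8.09 on BA arrays. The 5 BA arrays were all high, whereas control 3 and 4 were low and the other control arrays were as high as BA. The means were 7.18 ± 1.88 and 8.40 ± 0.49 (SD, n = 5 each), the difference was 1.22, and its 95% interval ran from -0.48 to 2.92 (limma adjusted p = 0.584). Ifit3 has a near-identical neighbour, Ifit3b, so its probe signal may be shared. Ifit1 was 5.80, 6.97, 5.53, 5.57 and 5.64 in control and 5.39, 6.22, 5.70, 5.78 and 6.83 in BA cells. It was high on control 2 and BA 5 and differed by 0.08 ± 0.33 between groups, while Ifit2 differed by 0.28 ± 0.19. Control 3 and 4, the low arrays for Ifit3, lay close to control 1 and 5 for Ifit1.

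Oas2 and Oas3 are oligoadenylate synthetases, whose product activates RNase L, and differed by -0.13 ± 0.15 and -0.24 ± 0.16. Their relatives Oasl1 and Oasl2 differed by -0.20 ± 0.14 and 0.21 ± 0.16. Among the GTPases, Mx2 was 5.63, 6.96, 5.08, 4.97 and 4.63 in control and 4.56, 4.70, 4.68, 4.83 and 4.59 in BA cells. Every BA array was below 4 of the 5 control arrays, and control 2 was the highest array. The difference was -0.78 ± 0.37 (SE; limma adjusted p = 0.533). Mx1, whose gene is defective in the C57BL/6 strain, was 3.20 ± 0.23 in control and 3.13 ± 0.32 in BA cells (SD, n = 5 each). Gbp3, a guanylate-binding protein, differed by -0.17 ± 0.20.

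Of the 4 members that act at membranes or on virus entry, 3 had higher means in BA cells and 1 a lower mean. Rtp4, an interferon-induced receptor chaperone, was 5.69, 4.67, 5.35, 5.54 and 5.02 in control and 5.06, 6.03, 6.01, 5.86 and 5.59 in BA cells. BA 2, 3 and 4 were above every control array and BA 1 was near the low end. The difference was 0.46 ± 0.24 (SE; limma adjusted p = 0.544). Ifitm3, which blocks fusion of virus in endosomes, was 11.59, 11.89, 11.22, 9.55 and 11.12 in control and 11.40, 9.01, 9.55, 10.35 and 11.10 in BA cells. It ranged over more than 2 log2 units in each group and differed by -0.79 ± 0.54. Bst2 (tetherin, which holds budding virus at the surface) differed by 0.17 ± 0.22 and Rsad2 (viperin) by 0.12 ± 0.11.

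Of the 4 members that conjugate or remove ubiquitin and ISG15, 2 had higher and 2 lower means in BA cells. Trim25, a ubiquitin ligase that acts on the RNA sensor RIG-I, was 6.32, 7.19, 7.57, 6.09 and 7.02 on control arrays and 7.29, 7.76, 7.56, 7.28 and 8.03 on BA arrays. Every BA array was above 4 of the 5 control arrays, and control 3 lay within the BA range. The means were 6.84 ± 0.62 and 7.58 ± 0.32 (SD, n = 5 each). The difference was 0.75 with a 95% interval of 0.12 to 1.37, or 1.68-fold, at an unadjusted p of 0.0238 and an adjusted p of 0.494 in limma. The other members of this role had smaller differences. Usp18, which strips ISG15 and damps the receptor, differed by -0.15 ± 0.15, Herc6, the mouse ISG15 ligase, by 0.23 ± 0.36, and Dtx3l by -0.13 ± 0.18. Parp9, which works in a complex with Dtx3l, differed by 0.11 ± 0.25, and its relative Parp14 by -0.04 ± 0.22.

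The chemokines Cxcl9 and Cxcl10 attract T and NK cells through the receptor Cxcr3, and both had lower means in BA cells. Cxcl9 was 9.26, 8.34, 8.08, 6.62 and 5.91 on control arrays and 6.42, 6.04, 5.97, 5.89 and 6.20 on BA arrays. Control 1, 2 and 3 were above every BA array, control 4 was slightly above them and control 5 was among them. The means were 7.64 ± 1.35 and 6.10 ± 0.21 (SD, n = 5 each). The difference was -1.54 with a 95% interval of -2.74 to -0.33, at an unadjusted p of 0.0173 and an adjusted p of 0.484 in limma. The BA values lay near the median of all probe sets on an array (5.91 to 6.02), so they are not shown to be above background and no fold is given. Cxcl10 was 8.53, 10.51, 5.79, 5.82 and 5.93 in control and 8.71, 6.28, 6.40, 6.85 and 5.91 in BA cells. It was high on control 1, control 2 and BA 1 and differed by -0.49 ± 0.95 between groups.

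The control arrays with high Cxcl9 were those with low Xist. Between arrays with low Xist, Cxcl9 was lower in BA than in control cells, by a difference of -2.37, and the 3 control arrays were all above the 2 BA arrays. Between arrays with high Xist the difference was -0.22. The change in the difference was 2.14 ± 0.51 (SE), with an unadjusted p of 0.00259 and an adjusted p of 0.999 in limma. This comparison was added after the values had been seen. No gene passed the adjusted threshold in it and 668 of 19938 (3.35%) had an unadjusted p under 0.05, among them 3 members: Cxcl9, Irf7 and Samd9l. With 2 or 3 mice in each cell of this layout the estimates rest on very few animals.

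Genes of the marrow stroma that also stood high on control 1, 2 and 3 are given beside Cxcl9, and were chosen after their values were seen. Cxcl12, the chemokine that retains blood stem cells, was 11.80, 11.75, 10.56, 9.84 and 9.81 in control and 10.54, 8.40, 9.83, 9.27 and 7.74 in BA cells. Lepr, the leptin receptor of perivascular stromal cells, was 10.13, 10.63, 9.60, 8.22 and 8.28 in control and 8.86, 6.92, 7.51, 7.67 and 5.97 in BA cells. Adipoq was 10.60, 10.81, 9.92, 8.33 and 8.43 in control and 7.05, 7.39, 7.71, 8.41 and 6.86 in BA cells. In each of these, as in Cxcl9, control 1, 2 and 3 were the 3 highest control arrays and control 4 and 5 were lower. The part of such stromal cells or their genes in the Cxcl9 difference was not tested. The T and NK cell marker list, measured for 12 of 12 genes, had a mean of 5.11 to 5.50 on control and 5.10 to 5.38 on BA arrays. Of these 12 genes, 2 had a mean above that of the median gene. One of them, Nkg7, was 7.93 on control 1, the array with the highest Cxcl9, and 5.74 to 6.90 on the other arrays. No other gene of the list had its highest value on control 1. The part of such cells in the Cxcl9 difference was not tested.

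**Figure D3:**
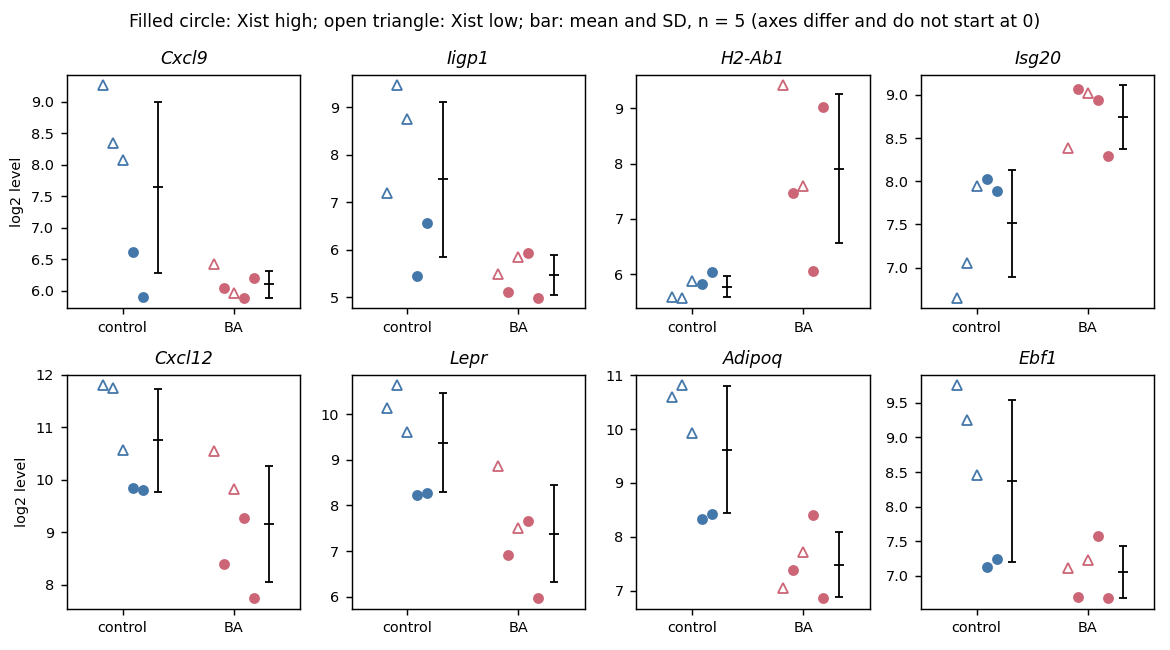
Log2 signal (vertical axis) of Cxcl9, of Iigp1, H2-Ab1 and Isg20 from the pathway lists and of stromal genes on the 5 control and 5 BA arrays (horizontal axis), 1 point per mouse (filled circles for high Xist, open triangles for low), with mean and SD. Cxcl9 is above 8 on the 3 control arrays with low Xist and below 7 on every other array.

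Of the 5 members with other roles, 4 had higher means in BA cells and 1 a lower mean. Nmi, which binds Stat proteins and Ifi35, was 5.72, 5.78, 6.39, 5.40 and 5.00 in control and 5.18, 5.97, 7.79, 7.15 and 7.28 in BA cells. BA 3, 4 and 5 were above every control array, and BA 1 and 2 were not. The difference was 1.02 ± 0.47 (SE; limma adjusted p = 0.533). Its partner Ifi35 differed by -0.26 ± 0.19. Samd9l, a restraint on cell growth and viral translation, was 5.18, 7.20, 6.05, 4.25 and 3.94 in control and 4.63, 4.37, 5.55, 5.54 and 6.96 in BA cells. Both groups spanned more than 2 log2 units and their means differed by 0.09 ± 0.66. Xaf1, an antagonist of the apoptosis inhibitor Xiap, differed by 0.05 ± 0.34, Cmpk2, a mitochondrial nucleotide kinase, by 0.07 ± 0.12, and Tap1, which carries peptides to MHC class I, by -0.02 ± 0.12.

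Variation between arrays within a group was larger for several members than the difference between groups. Each array was set against the median of the 4 other arrays of its group. On control 2, 7 members (19.4%) were at least 1 above that median, against 3.71% of all genes: Ifih1, Eif2ak2, Ifit1, Mx2, Cxcl10, Xaf1 and Samd9l. On control 1 this held for 5 members (13.9%), against 3.38% of all genes: Stat2, Irf1, Ifit3, Cxcl9 and Cxcl10. On BA 5 it held for 4 (11.1%), against 3.28% of all genes: Eif2ak2, Ifit1, Ifitm3 and Samd9l. On control 4, 7 members (19.4%) were at least 1 below the median of the others, against 1.49% of all genes: Irf1, Ifit3, Ifitm3, Trim25, Cxcl9, Cxcl10 and Samd9l. These arrays were picked out after the values had been seen, so the shares are descriptions. Only Cxcl10 reached the step of 1 on both control 1 and control 2. Cxcl9 and Ifit3 reached it on control 1 and fell short of it on control 2, at 0.99 and 0.87 above the median.

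**Figure D4:**
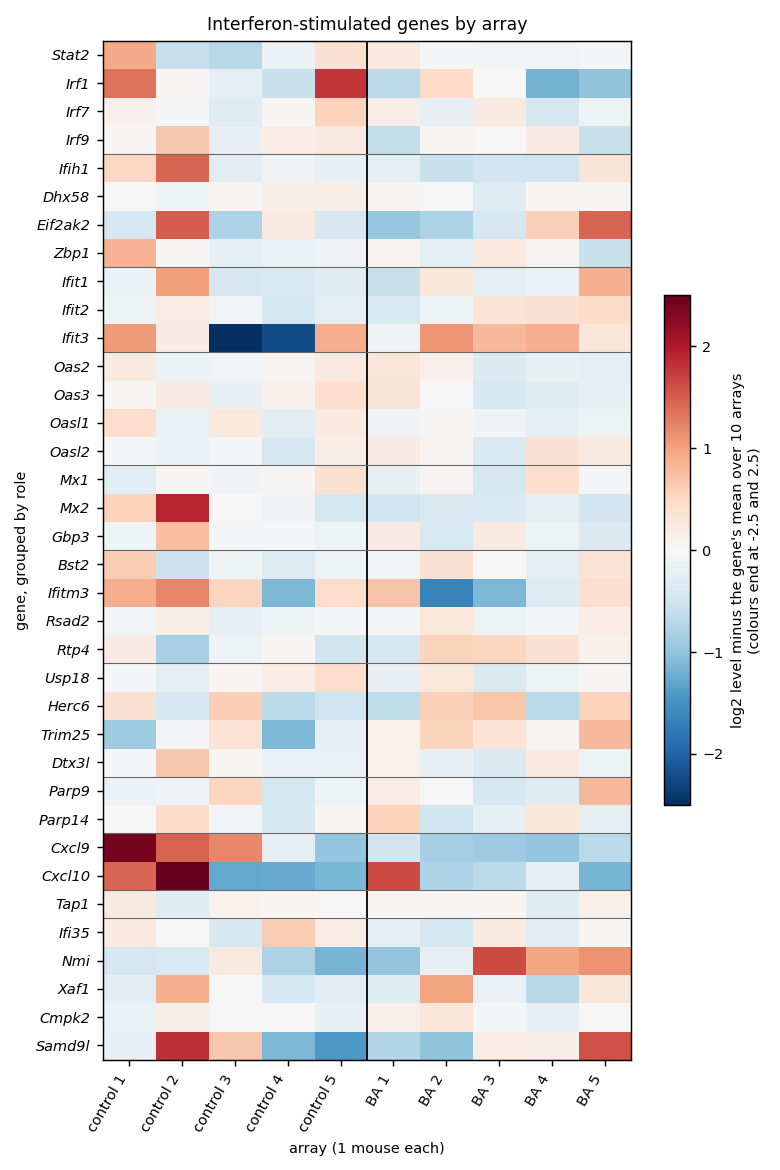
Deviation of each member (vertical axis, by role) from its mean over all 10 arrays, in log2 units by colour, for control 1 to 5 and BA 1 to 5 (horizontal axis). Red or blue columns would mark an array on which the members move together, and the high values of control 2 and BA 5 are limited to some of the members.

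The 3 members Eif2ak2, Ifit1 and Samd9l were high on both control 2 and BA 5. Eif2ak2 was 7.65 on control 2 against 5.37 to 6.37 on the other control arrays, and 7.60 on BA 5 against 5.18 to 6.74 on the other BA arrays. Samd9l was 7.20 against 3.94 to 6.05, and 6.96 against 4.37 to 5.55. These were also the arrays with the highest mean of the pan-haematopoietic markers, genes shared by blood cells, measured for 12 of 12.

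The mean of that list was 6.85 on control 2 against 5.91 to 6.36 on the other control arrays, and 7.69 on BA 5 against 6.04 to 6.44 on the other BA arrays. Lcp1, an actin-bundling protein of blood cells, was 8.81 on control 2 against 5.83 to 7.17, and 9.82 on BA 5 against 5.53 to 7.83. Ptprc, which encodes CD45, an antigen stained in the sort, was 9.29 on BA 5 and 5.54 to 5.90 on the other 9 arrays, control 2 included. Not every marker of the list was high on BA 5. Was (6.03) and Spn (6.80) were below every control array there, and Vav1 (5.08) and Fli1 (7.39) lay within the range of the other BA arrays. The macrophage list, 11 of 12 measured, was 7.20 on BA 5 and 5.92 to 6.53 on the other BA arrays, and 5.91 on control 2, inside the range of the other control arrays (5.77 to 6.21). The neutrophil list of 14 genes was 9.44 on BA 5 and 7.85 on control 2, the highest array of each group. Between groups, all 14 neutrophil markers had higher means in BA cells, with a median difference of 0.87, and none passed the adjusted threshold in limma. The largest differences were 4.43 for Lcn2 and 2.65 for Cxcr2, and the smallest were 0.03 for Elane, 0.11 for Mmp9 and 0.12 for Prtn3. For Lcn2 the groups did not overlap, as for 0.567% of all genes with higher values. Lcn2 did not follow the list mean within BA cells. On BA 2, with the lowest list mean of the group (7.20), it was 11.05, and on BA 4 (list mean 7.98) it was lowest, at 8.54. The part of blood cells in these high values was not tested.

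**Figure D5:**
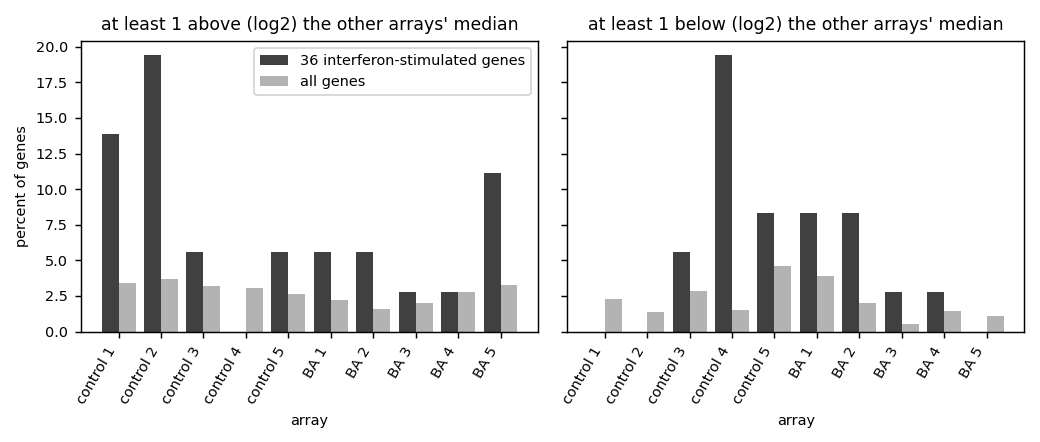
Members at least 1 log2 unit above or below the median of the other 4 arrays of their group, as a percentage of the 36 members (vertical axis) on each array (horizontal axis), beside the same percentage over all 19938 genes. Control 2 and control 1 hold the largest shares above (19.4% and 13.9%) and control 4 the largest share below (19.4%).

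In 6 further lists of interferon genes, no gene passed the adjusted threshold in limma. Of 14 measured interferons, 3 were higher and 11 lower in BA cells, with a median difference of -0.04. Ifnb1 was 4.68 ± 0.12 in control and 4.66 ± 0.25 in BA cells, and Ifng was 6.10 ± 0.24 and 6.06 ± 0.29 (SD, n = 5 each). Of the 14, 6 had a mean above that of the median gene. The others, with Ifnb1, Ifng and Ifne among them, are not shown to be above background. Ifna2, whose sequence is close to that of other alpha interferons, differed by -0.36 ± 0.15. It was the single interferon with an unadjusted p under 0.05 in limma, which 5.27% of all genes reached for lower values. Ifnl2 differed by -0.30 ± 0.16, Ifna14 by -0.21 ± 0.16 and Ifne by -0.14 ± 0.11.

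Of 10 receptors and kinases, 6 were higher and 4 lower, with a median of 0.17. Ifnar1 was 7.86, 7.29, 7.30, 7.00 and 7.06 in control and 6.72, 6.39, 6.79, 7.13 and 6.91 in BA cells. All BA arrays but BA 4 were below every control array, and the difference was -0.51 ± 0.18 (SE; limma adjusted p = 0.484). Its partner Ifnar2 differed by 0.15 ± 0.53, Ifngr1, the ligand-binding chain of the interferon gamma receptor, by -0.68 ± 0.36, and Ifngr2 by 0.22 ± 0.29. Among the kinases, Jak2 differed by 1.08 ± 0.44, Jak1 by 0.20 ± 0.15 and Tyk2 by -0.18 ± 0.13. Il10rb, a chain of the receptor for interferon lambda, differed by 0.78 ± 0.50.

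Of 15 genes of nucleic acid sensing, 8 were higher and 7 lower, with a median of 0.03. Ticam1, the adaptor TRIF, differed by -0.31 ± 0.13, Cgas, the sensor of DNA in the cytosol, by -0.22 ± 0.15, Trim56 by -0.74 ± 0.41 and Irf5 by -0.23 ± 0.16. Of 12 genes of feedback and restraint, 3 were higher and 9 lower, with a median of -0.14, and none had an unadjusted p under 0.05. Irf8 differed by -0.26 ± 0.13, Ube2l6, the conjugating enzyme for ISG15, by -0.35 ± 0.17, Socs1, an inhibitor of Jak kinases, by -0.23 ± 0.15 and the exonuclease Trex1 by -0.18 ± 0.11.

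Of 42 further interferon-stimulated genes, 25 were higher and 17 lower, with a median of 0.13. Isg20, an exonuclease for RNA, was 6.65, 7.05, 7.94, 8.03 and 7.89 on control arrays and 8.39, 9.07, 9.02, 8.94 and 8.29 on BA arrays. Every BA array was above every control array, as for 0.567% of all genes. The difference was 1.23 ± 0.29 (SE; limma adjusted p = 0.384). Slfn1 differed by 0.55 ± 0.23, Ifi27 by 0.42 ± 0.20 and Ifitm2, a neighbour and relative of Ifitm3, by 0.49 ± 0.24. The sign for Ifitm2 was thus opposite to that for Ifitm3, with neither past the test. Ifitm2 had 3 probe sets, and its value is that of the brightest alone.

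Of 25 genes of the interferon gamma response and antigen presentation, 10 were higher and 15 lower, with a median of -0.05. The largest values in the list had opposite signs. H2-Ab1, a chain of MHC class II, was 5.58, 5.57, 5.87, 5.82 and 6.03 in control and 9.42, 7.47, 7.59, 6.05 and 9.02 in BA cells. The groups did not overlap, as for 0.567% of all genes with higher values, though BA 4 exceeded control 5 by little. The difference was 2.14 ± 0.54 (SE), with an adjusted p of 0.384 in limma. H2-Aa, the partner chain, differed by 1.32 ± 0.47 and Cd74, the invariant chain, by 1.06 ± 0.50. H2-Eb1, another MHC class II chain, differed by 0.21 ± 0.12. BA 1 and BA 5, the highest arrays for H2-Ab1, also had the highest means of the macrophage list (6.53 and 7.20) and of the neutrophil list (8.40 and 9.44). The other BA arrays did not follow this order. On BA 2 and BA 3, where H2-Ab1 was 7.47 and 7.59, the macrophage means were 5.92 and 6.13, inside the control range (5.77 to 6.21). BA 4, with the lowest H2-Ab1 of the group (6.05), had a macrophage mean of 6.22. The part of such cells in the MHC class II values was not tested.

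Iigp1, a GTPase induced by interferon gamma, was 7.19, 9.46, 8.75, 5.44 and 6.57 in control and 5.49, 5.11, 5.84, 5.93 and 4.99 in BA cells. As with Cxcl9, control 1, 2 and 3 were the highest arrays, and control 4 lay inside the BA range. The difference was -2.01 ± 0.66 (SE; limma unadjusted p = 0.0124, adjusted p = 0.477). It was -2.80 between arrays with low Xist and -0.66 between arrays with high Xist.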

How the data were processed

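RNA from 10 mice, 5 per group, was measured on 1 array each. The deposited values are log2 signals made with GCRMA, per the submitters' processing notes (background correction by probe sequence, normalization across arrays and 1 value per probe set; version and annotation not given in the sources used here). Amplification of RNA from few cells and the number of arrays limit the precision. GCRMA scales arrays alike, so a shift common to all genes cannot be seen.

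Probe sets were named through the platform annotation: 21789 of 35557 had 1 symbol, 1621 had several and 12147 none. Where a gene had more than 1 such probe set (999 genes), the brightest on average was used, which left 19938 genes. A linear model with moderated variances (limma 3.58.1, R 4.3.3, two-sided) compared BA with control on all of them, with Benjamini-Hochberg adjustment and a threshold of 0.05. No filter on level was applied; 14 of 36 members were above the median gene. The code was tested on simulated data.

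Members and lists were chosen with earlier results of these data known. Given array by array are the transcription factors, the 8 members with the smallest p, the 6 with the largest SD within a group and any whose groups did not overlap. Eif2ak2, Ifit1 and Ifitm3 were added after their values were seen. Of each pathway list the 4 genes with the smallest p are named, plus Ifnb1, Ifng, H2-Eb1 and the main receptor chains and kinases. Same-numbered arrays of the groups did not deviate together (correlations from -0.10 to 0.11), so numbers were not taken to pair mice. Alternatives were quantile normalization, centring, array weights, a filter on level, another probe set rule, covariates, a replicate block and leaving out each array.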

Additional observations from a re-analysis of the deposited data

Results flagged for a closer look

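Within the 5 arrays of a group, the gap between an extreme array and its nearest neighbour was set against the group's range. It exceeded 0.71 of the range (Dixon's limit) in 7 of 72 member groups, where the nominal rate is 1 in 20, or 3.6. The share over all genes was not counted, so an excess particular to these members is not shown. Control 2 held 3 of the 7: Ifit1 at 6.97 (others 5.53 to 5.80), Gbp3 at 6.29 (others 5.41 to 5.52) and Dtx3l at 6.41 (others 5.56 to 5.76). Zbp1 was high on control 1 at 6.75 (others 5.65 to 5.91). In BA cells Stat2 was high on BA 1 at 7.17 (others 6.87 to 6.91), Dhx58 was low on BA 3 at 4.75 (others 5.06 to 5.13), and Tap1 was low on BA 4 at 6.12 (others 6.45 to 6.55).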

How the results depend on the processing

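Under the 21 alternatives no member passed the adjusted threshold, and the lowest adjusted p of any member was 0.327 (Nmi, limma). Of 734 member values under alternatives, 8 moved by 1 SD or more, and 16 of 36 members kept their sign throughout. Cxcl9 was lower in BA cells under all of them (-2.37 to -0.22) and lost its unadjusted p under 0.05 between arrays with high Xist only. Trim25 was higher under all (0.40 to 1.14) and kept its unadjusted p in 16. At an unadjusted p under 0.05 were 2 members (5.56%, against 9.4% of all genes). There was 1 (2.78%) with quantile normalization (all genes 8.31%) and between arrays with low Xist (5.07%). There were 4 (11.1%) between arrays with high Xist (5.55%), 5 (13.9%) with array weights (10.7%) and 6 (16.7%) with the pan-haematopoietic mean as a covariate (7.65%). Leaving out 1 array gave 1 to 6: 6 without BA 1 (all genes 12.6%), 5 without control 4 (10.6%), 4 without control 3 (7.78%) or BA 2 (9.38%), and 1 without BA 5 (6.99%). With only genes above the median level, 5 of 14 members were higher and their median difference was -0.17. Over all genes, 1 passed higher (Snord38a). None did with the replicate block or among genes above the median level, so the count was 0. The filter on level removed Snord38a (mean 4.76 over all arrays) before testing, so its loss there was fixed in advance. With the pan-haematopoietic or the Xist covariate, 2 passed higher. Leaving out 1 array gave 0 to 12 higher and 0 to 1 lower, with 12 and 1 without BA 4, 2 higher without control 4 or BA 1, and 0 higher without control 2, control 5, BA 3 or BA 5. The replicate block left 3 members at an unadjusted p under 0.05 (8.33%, all genes 8.37%) and 15 higher. The share of all genes higher was 37.9%, 42.7% with quantile normalization and 44.3% after centring.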
